A study of Mus musculus with 16 samples.

Results

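The transcripts of 10 leukocyte integrin genes were followed in bone marrow-derived macrophages (BMMs) in which the cleavage of Notch receptors was blocked. The genes were taken by symbol from a table of 47069 genes: Itgb2 with its alpha partners Itgal, Itgam and Itgax, and Itgb1, Itga4, Itga5, Itga6, Itga9 and Itgav. They filled 11 rows, because 2 Ensembl genes carried the symbol Itgam. The BMMs came from C57BL/6 mice of 8 to 10 weeks and were harvested on day 7 of culture with L929-conditioned medium. All cells were primed overnight with IFNγ (10 ng/mL) and activated with Salmonella LPS (100 ng/mL) together with IgG-opsonized ovalbumin as immune complexes (LPS/ICs) for 1 hr. One group received DAPT (25 μM), a γ-secretase inhibitor (GSI), and the other the vehicle DMSO (0.01%). Each group had 2 replicates, and the labels do not say whether these were separate mice or cultures, so p-values measure the spread between these libraries, which may be technical. Resting cells and cells activated without GSI or DMSO were not analysed here, so each change below is between the activated groups.

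Integrins are cell surface receptors built from an alpha and a beta subunit. On macrophages they bind matrix proteins, complement fragments and adhesion molecules of other cells, and they serve in crawling, adhesion and phagocytosis. The beta 2 family, which shares the subunit encoded by Itgb2, is restricted to leukocytes, whereas the beta 1 subunit encoded by Itgb1 is found on most cells. An alpha chain reaches the surface only once it has paired with a beta chain. γ-Secretase cuts Notch and other membrane proteins, and DAPT therefore does not act on Notch alone.

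The DMSO libraries held 42694655 and 56932059 counts, the GSI libraries 48483661 and 49511733. Levels are given as CPM, counts scaled to a common library size, and a count of 0 would allow up to 3 counts, or 0.0529 to 0.0697 CPM, counting error only. The integrins took 0.473% and 0.476% of all counts with DMSO and 0.336% and 0.356% with GSI. The 7 macrophage markers tested were all present, with a summed level of 12179 to 12372 CPM with DMSO and 9419.9 to 10345 CPM with GSI. These cells thus carried the transcripts of macrophages, but the summed markers of the GSI libraries lay below those of the DMSO libraries. Of the 7 markers, 5 fell, 1 rose and 1 was not called (85.7% called, against 40.8% of all 13211 tested genes), with the largest changes in Cd14, a co-receptor for LPS (log2 fold change -0.64), and Mertk, a receptor for the uptake of dying cells (0.64). In bulk RNA, fewer cells of a type and less RNA per cell cannot be told apart.

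Markers of other cells were given by their summed levels. The 8 markers of neutrophils and their precursors summed to 0.604 to 1.29 CPM over the 4 libraries, and 1 of them (Ly6g, Elane, Mpo, Camp, Ngp, Cxcr2, S100a8 and S100a9) was at 0 in all. The 3 B cell markers summed to at most 0.103 CPM and the 4 fibroblast markers to at most 0.106 CPM. The 6 markers of T and NK cells summed to 1.02 to 1.21 CPM with DMSO and 2.17 to 2.75 CPM with GSI, nearly all of it Lck. The 5 dendritic cell markers summed to 179 to 186 CPM with DMSO and 113 to 115 CPM with GSI, nearly all of it Clec9a, so that this list was not low. The 4 megakaryocyte markers summed to 19.5 to 22.1 CPM with DMSO and 24.6 to 29.99 CPM with GSI, nearly all of it Pf4. The part of the macrophage, dendritic, T cell and megakaryocyte markers in the integrin results was not tested.

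With GSI, 9 of the 10 integrins fell and 0 rose, at an FDR under 0.05 in edgeR's quasi-likelihood test. All 10 were among the 13211 genes that passed the filter on low counts. Of all tested genes, 21.9% were called lower and 19% higher, or 40.8% in either direction. Among the 1945 genes averaging at least 100 CPM, 29.4% were called lower and 23.2% higher, or 52.6% in all. The median log2 fold change of the 10 genes was -0.71, against 0.015 for all tested genes, and their values ran from -2.04 to -0.014. Itga9 and Itga6 also passed the study's cut-off of 1.5 on the log2 scale, which 2.91% of tested genes passed. In all 9, both GSI libraries lay below both DMSO libraries, as they did in 34.8% of tested genes. In a further 35.8% both lay above, so that the groups did not overlap in 70.6%. Itgb1 alone of the 10 was not called. All 10 values rest on the same 4 libraries.

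**Figure D1:**
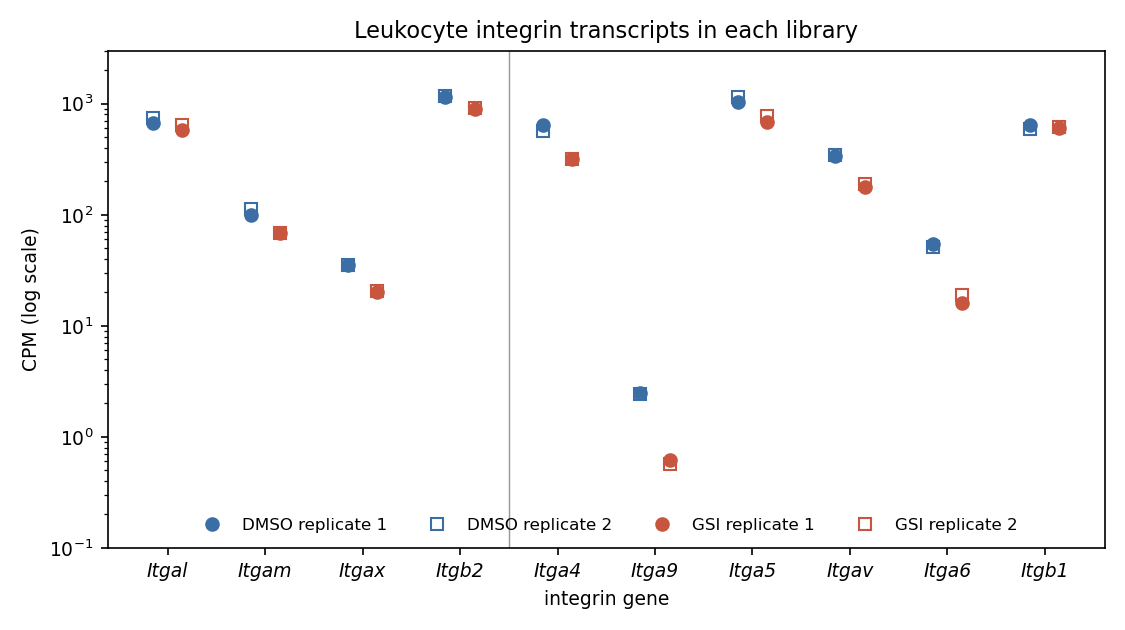
CPM on a log axis of the 10 integrin genes in the 4 libraries, DMSO in blue and GSI in red, with replicate 1 as filled circles and replicate 2 as open squares. The vertical line separates the beta 2 family on the left from the other genes. The GSI points lie below the DMSO points for every gene except Itgb1, where they lie among them.

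**Figure D2:**
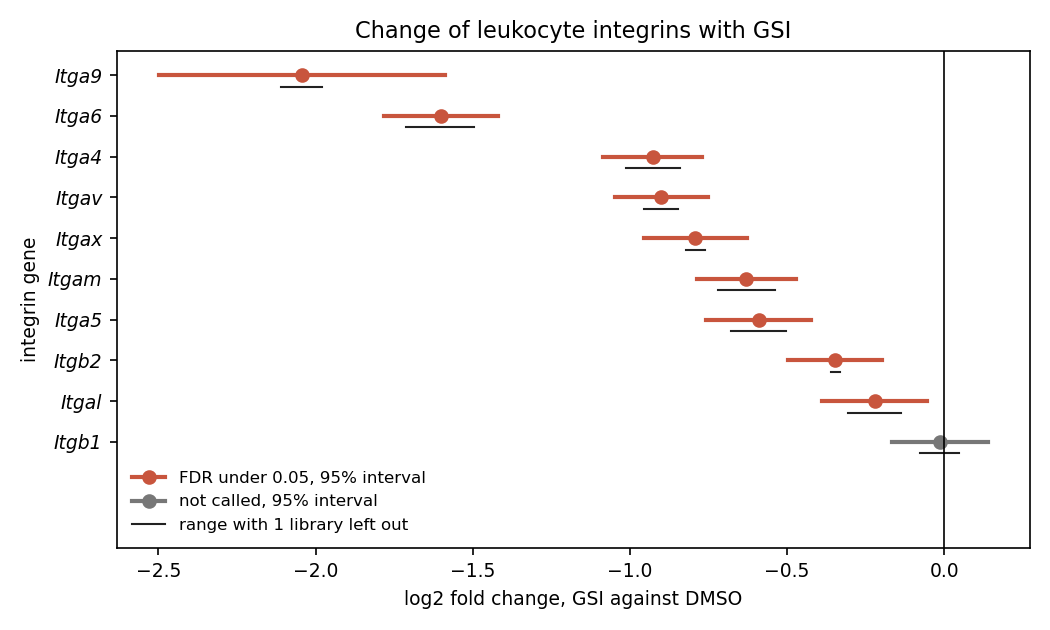
Log2 fold change of GSI against DMSO for each integrin, with its 95% interval from the edgeR fit as a thick line and the range of the estimate when 1 library is left out as a thin line below it. Red marks an FDR under 0.05 and grey Itgb1, which was not called. Itga9 and Itga6 lie farthest from 0, and the interval of Itgal comes closest to it among the called genes.

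Itgb2 encodes the common beta chain of the leukocyte integrins (CD18) and lies on chromosome 10 of GRCm38 (77530252 to 77565708). It measured 1160.0 and 1162 CPM in DMSO-treated cells and 903 and 923 CPM in GSI-treated cells. The replicates lay close together, and the groups were apart. The log2 fold change was -0.35 (standard error 0.0720, edgeR FDR = 0.000637), a decrease of 21.4%.

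Itgal encodes the alpha L chain, which with the Itgb2 product forms LFA-1, a receptor for ICAMs, and lies on chromosome 7 (127296260 to 127335138). It measured 670.0 and 751 CPM with DMSO and 575 and 645 CPM with GSI. The lowest DMSO library exceeded the highest GSI library by only 1.04-fold, the narrowest gap of the 9 genes that fell. The log2 fold change was -0.22 (95% interval -0.39 to -0.053, edgeR FDR = 0.0330). The call rested on single libraries: without DMSO replicate 2 the value was -0.14 (edgeR FDR = 0.31), and without GSI replicate 1 it was -0.14 (edgeR FDR = 0.216). Over the 4 fits that left out 1 library, the edgeR FDR ran from 0.00296 to 0.31.

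Itgam encodes alpha M (CD11b), which with the Itgb2 product forms the complement receptor Mac-1, a receptor for iC3b and fibrinogen. It lies on chromosome 7 (128062640 to 128118491), and measured 99.5 and 113 CPM with DMSO and 68.6 and 68.7 CPM with GSI. Both GSI libraries were lower, by -0.63 as a log2 fold change (standard error 0.0752, edgeR FDR = 1.15e-06). Itgax encodes alpha X (CD11c), the chain of a second complement receptor, and lies on the same chromosome (128129547 to 128150657). It measured 35.2 and 35.3 CPM with DMSO and 19.9 and 20.8 CPM with GSI. The groups were separated by 1.7-fold between their nearest libraries, and the log2 fold change was -0.79 (standard error 0.0788, edgeR FDR = 1.03e-07). The decreases of the 3 alpha chains came to 14.2% for Itgal, 35.4% for Itgam and 42.2% for Itgax, and the 95% intervals of Itgam (-0.79 to -0.47) and Itgax (-0.96 to -0.63) overlapped.

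The level of Itgam may depend on how reads were assigned. In GENCODE M21, a second protein-coding gene (ENSMUSG00000108596, there named Gm49368) lies on the same strand at 128062683 to 128128160 and shares 3450 of the 5024 exon bases of Itgam (ENSMUSG00000030786), or 68.7%. The deposited table gives this second gene the symbol Itgam as well. Its row held 33 and 56 counts in the DMSO samples against 4281 and 6402 in the first row, and 16 and 31 counts in the GSI samples against 3316 and 3392. The second row was therefore nearly empty although most of its exon bases are also exon bases of an expressed gene. Whether reads on the shared exons were discarded could not be read from the table, so the Itgam counts may come from part of its transcript only. If all of them were, the counts of Itgam belong to its 1574 unshared exon bases, and levels per kilobase are therefore given on both lengths below. The log2 fold change of the second row was -0.88 (standard error 0.319, edgeR FDR = 0.0324). The other 9 integrins shared 0 exon bases with a gene on their own strand. On the opposite strand, Cerkl shares 1124 exon bases with Itga4 and Gm13684 shares 634 with Itgav, and these held 298 and 0 counts over all 16 columns.

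Itgam, Itgax and Itgad follow each other on the plus strand of chromosome 7. The second Itgam gene overlaps Itgam, with 1386 bases between the second Itgam gene and Itgax. Itgal lies on the same strand, 727501 bases from Itgam. Itgad, which encodes alpha D, was not tested because its counts were too low. Of the 10 integrins, 7 had an upstream sequence in the RefSeq table (GRCm38.p6), and 3, chosen by their results, are printed here. These are Itgam and Itgax, the neighbours that both fell, and Itgb1, which was not called. Each covers the 250 bases before the RefSeq start, on the plus strand: chr7:128062390-128062639 for Itgam, chr7:128129300-128129549 for Itgax and chr8:128685404-128685653 for Itgb1. Capitals mark matches on either strand to GAGGAA (the core bound by PU.1, a macrophage transcription factor), GGGCGG (the GC box), TGANTCA (AP-1) or TGGGAA (the core bound by RBPJ).
Itgam: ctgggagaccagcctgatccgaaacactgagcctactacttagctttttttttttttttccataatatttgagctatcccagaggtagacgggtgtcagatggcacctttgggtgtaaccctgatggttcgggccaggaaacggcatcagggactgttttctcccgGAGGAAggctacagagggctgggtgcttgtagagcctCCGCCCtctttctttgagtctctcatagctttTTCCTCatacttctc
Itgax: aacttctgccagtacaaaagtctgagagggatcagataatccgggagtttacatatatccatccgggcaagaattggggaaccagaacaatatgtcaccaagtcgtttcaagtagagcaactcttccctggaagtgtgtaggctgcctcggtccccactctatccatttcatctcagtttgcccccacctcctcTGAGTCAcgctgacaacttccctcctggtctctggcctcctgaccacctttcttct
Itgb1: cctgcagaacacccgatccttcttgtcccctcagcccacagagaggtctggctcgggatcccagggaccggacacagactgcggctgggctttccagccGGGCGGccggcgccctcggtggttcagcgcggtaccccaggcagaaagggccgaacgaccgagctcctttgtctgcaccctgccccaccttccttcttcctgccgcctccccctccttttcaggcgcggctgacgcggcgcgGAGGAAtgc
Itgam held GAGGAA at 84 and, on the other strand, at 15 bases before its start, and a GC box on the other strand at 47 bases. Itgax held the AP-1 letters TGAGTCA at 56 bases and no match to the other motifs. Itgb1 held GAGGAA at 9 bases and a GC box at 151 bases, and had the highest GC content of the 7 windows (68%). The others ran from 49.6% for Itgam and 50% for Itgax to 64% for Itga4 and 64.4% for Itgav. The Itga9 window (chr9:118711442-118711691) lies inside the gene as placed in GENCODE M21 (118606690 to 118901003), not before its start there. Over the 7 windows, GAGGAA was found in 4, the GC box in 4, the AP-1 motif in 1 and TGGGAA in 0. Of all 32851 windows of the same length, 23.3%, 32.7%, 6.75% and 21.6% held them. These matches describe letters, not binding.

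Itga4 encodes alpha 4 (CD49d), which pairs with the beta 1 or beta 7 chain and binds VCAM-1 and fibronectin. It lies on chromosome 2 (79255426 to 79333123) and measured 645 and 573 CPM with DMSO and 320.2 and 320.0 CPM with GSI. Both GSI libraries stood far below both DMSO libraries, and the log2 fold change was -0.93 (standard error 0.0757, edgeR FDR = 6.51e-09), so that 47.4% of the level was lost. Itga9 encodes alpha 9, the closest relative of alpha 4, which pairs with beta 1 and lies on chromosome 9 (118606690 to 118901003). Its level was low: the DMSO libraries had 106 and 139 counts (2.46 and 2.45 CPM), the GSI libraries 30 and 28 (0.621 and 0.567 CPM). The nearest libraries of the groups differed 3.95-fold, the widest gap of the 10 genes. The log2 fold change was -2.04 (95% interval -2.50 to -1.59, edgeR FDR = 2.56e-07), the largest decrease of the 10 on the log2 scale.

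Itga5 encodes alpha 5 (CD49e), whose dimer with beta 1 is the main fibronectin receptor. It lies on chromosome 15 (103344286 to 103366763) and measured 1047 and 1151 CPM with DMSO and 686 and 774 CPM with GSI. All GSI values were below all DMSO values, and the log2 fold change was -0.59 (standard error 0.0801, edgeR FDR = 5.95e-06). Itga6 encodes alpha 6 (CD49f), a laminin receptor chain that pairs with beta 1 or beta 4, and lies on chromosome 2 (71745616 to 71858416). It measured 55.0 and 50.9 CPM with DMSO and 16.1 and 18.8 CPM with GSI. The GSI libraries held roughly 1 part in 3 of the DMSO level, and the log2 fold change of -1.60 (standard error 0.0863) had the lowest FDR of the 10 genes (2.24e-11, edgeR). When 1 library was left out it ran from -1.71 to -1.50, and without GSI replicate 1 it no longer passed the cut-off of 1.5. Itgav encodes alpha V (CD51), which pairs with several beta chains and binds vitronectin and osteopontin. It lies on chromosome 2 (83724397 to 83806916) and fell from 338 and 346 CPM to 176 and 190.2 CPM, a log2 fold change of -0.90 (standard error 0.0714, edgeR FDR = 4.51e-09).

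Itgb1 encodes the beta 1 chain (CD29), the partner of Itga4, Itga5, Itga6, Itga9 and Itgav products, and lies on chromosome 8 (128685654 to 128733200). It measured 639 and 588 CPM with DMSO and 602 and 613 CPM with GSI. The GSI libraries lay between the DMSO libraries. The log2 fold change was -0.014 (standard error 0.0736, edgeR FDR = 0.899), with a 95% interval of -0.17 to 0.14. This interval did not reach the value of any of the 9 genes that fell, but it overlapped the 95% interval of Itgal (-0.39 to -0.053). Itgb1 was not called in any alternative tried, with values from -0.077 to 0.047.

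Levels of different genes were compared as CPM per kilobase of merged exons. With DMSO the order was Itgb2 (380.4 ± 0.452, SD, n = 2), Itga5 (223 ± 14.9), Itgb1 (150.3 ± 8.95), Itgal (108 ± 8.76), Itga4 (43.6 ± 3.65), Itgav (31.8 ± 0.553), Itgam (21.1 ± 1.88), Itgax (7.34 ± 0.0049), Itga6 (5.87 ± 0.325) and Itga9 (0.319 ± 0.00126), each CPM per kilobase over 2 libraries. Each neighbour in this order was apart from the next in both libraries. The 4 genes with the highest levels, Itgb2, Itga5, Itgb1 and Itgal, had the 4 smallest log2 fold changes, and the 2 lowest on this length, Itga6 and Itga9, had the 2 largest. With GSI the order was the same except that Itga5 (148 ± 12.7) and Itgb1 (149 ± 1.94) came to overlap. If every read on shared exons was discarded, which is not known, the same Itgam counts divided by its 1574 unshared exon bases give 67.5 ± 5.99 with DMSO and 43.6 ± 0.0404 with GSI, above Itga4. Divided by the length of the longest transcript, Itga6 (12.3 ± 0.681) stood above Itgax (8.71 ± 0.00582) with DMSO.

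Ratios within a library do not depend on how libraries are scaled, but 2 against 2 libraries cannot give an exact permutation p below 0.333. The summed level of Itga4, Itga5, Itga6, Itga9 and Itgav per unit of Itgb1 reached 1.89 and 2.17 in DMSO-treated cells but 1.22 and 1.33 after GSI, both on CPM per kilobase. The summed alpha chains were thus lower relative to Itgb1 in both GSI libraries, with a log2 difference of -0.67 (two-sided exact permutation p = 0.333). Itga5 made up most of this sum, and the ratio repeats the changes of the single genes given above. For the beta 2 family, the sum of Itgal, Itgam and Itgax per unit of Itgb2 stood at 0.34 and 0.379 under DMSO, against 0.356 and 0.384 under GSI. Here the groups overlapped (two-sided exact permutation p = 0.667). The difference of 0.044 on the log2 scale changed sign, to -0.031, when the Itgam counts were divided by the unshared exon length. The ratio of Itgb2 to Itgb1, chosen after its values were seen, stood at 2.43 and 2.64 under DMSO and was 2.01 in both GSI libraries.

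Within the alpha chains of the beta 2 family, the ratio of Itgam to Itgal differed by -0.41 and that of Itgax to Itgal by -0.57 on the log2 scale, GSI against DMSO, and the groups did not overlap in either ratio (two-sided exact permutation p = 0.333 for each). The ratio of Itgax to Itgam differed by -0.17, also without overlap (two-sided exact permutation p = 0.333). Without DMSO replicate 1 this difference was -0.076. Per kilobase of merged exons, Itgal made up 79.0% and 79.3% of the summed CPM of these 3 genes under DMSO, against 83.1% and 84.5% after GSI. With the unshared length for Itgam, a length chosen after seeing the data, its share was 59.1% in both DMSO libraries and 64.7% and 67.2% after GSI. Among the other alpha chains, Itga5 made up 71.6% and 74.7% under DMSO, against 77.2% and 78.6% under GSI, while Itga6 made up 2.06% and 1.8% under DMSO and 0.992% and 1.04% under GSI. With 2 libraries a group these shares were not tested. The chain with the largest share of each pool with DMSO, Itgal or Itga5, held a larger share with GSI. It was also the chain with the smallest decrease in its pool.

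**Figure D3:**
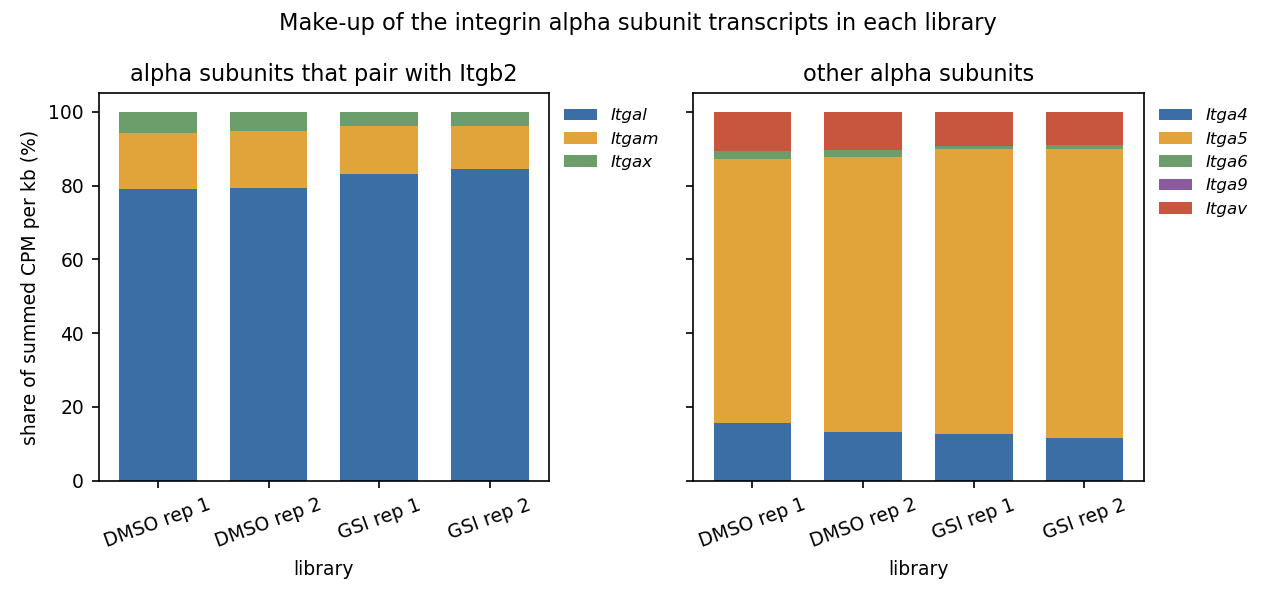
Share in percent of each alpha chain in the summed CPM per kilobase of merged exons, for the partners of Itgb2 on the left and the other alpha chains on the right, 1 bar per library. The Itgal part is 79.0% and 79.3% in the DMSO bars and 83.1% and 84.5% in the GSI bars, and Itga5 makes up most of every bar on the right.

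Of the 17 other integrin subunits, 8 were expressed enough to be tested, and 3 fell, 0 rose and 5 were not called. The share called, 37.5%, was close to the 40.8% of all tested genes. Itgb5, a beta chain that pairs with alpha V, fell from 134 and 136 CPM to 55.8 and 67.8 CPM, a log2 fold change of -1.13 (edgeR FDR = 1.49e-09). Itgb7, the second partner of alpha 4, fell from 189 and 195 CPM to 125 and 148 CPM (log2 fold change -0.49, edgeR FDR = 3.90e-05). The third was Itga8, at 6.32 and 6.45 CPM with DMSO and 1.78 and 1.96 CPM with GSI, a log2 fold change of -1.77. The beta partners of alpha 4 and alpha V other than beta 1 that averaged at least 1 CPM, Itgb7 and Itgb5, were thus lower with GSI. Itgb3 and Itgb8, which also pair with alpha V, averaged under 1 CPM, and Itgb4 was not tested.

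Integrins bind their ligands firmly only after talin and kindlin attach to the beta tail, a step set off by the GTPase RAP1. Of the 13 genes of this step, 8 were tested, and 5 fell, 1 rose and 2 were not called, so that 75% were called against 40.8% of all tested genes. The largest changes were those of Apbb1ip, which links RAP1 to talin (from 137 and 131 CPM to 88.4 and 84.5 CPM, log2 fold change -0.63), Tln1, talin itself (-0.38), and Rassf5, a RAP1 effector of leukocytes (-0.35). Of the 5 that fell, Rap1a and Fyb lost their call in at least 1 fit that left out a library, and 3 remained without DMSO replicate 1. Skap2, which rose, lost its call in 3 of these 4 fits. Of the 4 inhibitors of activation, 1 fell and 2 rose, also 75% against 40.8%. Flna, filamin A, which competes with talin for beta tails, fell from 900 and 952 CPM to 641 and 666 CPM (log2 fold change -0.50). Itgb1bp1, which binds the beta 1 tail, rose from 20.3 and 21.0 CPM to 26.6 and 28.3 CPM (0.41), and Dok1 rose from 52.5 and 53.8 CPM to 68.1 and 70.04 CPM (0.38).

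Adaptors and kinases carry signals between integrins and the cytoskeleton. Of 15 adhesion adaptors tested, 5 fell and 0 rose, or 33.3%, against 40.8% called over all tested genes. The largest changes were those of Actn1, which ties integrins to actin (log2 fold change -0.73), Pxn, paxillin (-0.42), and Crkl (-0.25). Only Actn1 and Pxn kept their call whichever library was left out. Crkl and Lims1 lost theirs without DMSO replicate 1 (edgeR FDR = 0.145 and 0.376), and Crkl and Parvg without GSI replicate 2 (edgeR FDR = 0.0672 and 0.101), so that 3 remained in each case. Lims1 was also lost without GSI replicate 1, and Parvg without DMSO replicate 2 and with DESeq2. Of 12 kinases, adaptors and exchange factors tested, 2 fell, 2 rose and 8 were not called, again 33.3% called. Src, a kinase that acts downstream of integrins, rose from 21.8 and 27.2 CPM to 45.7 and 45.1 CPM (log2 fold change 0.88, edgeR FDR = 1.50e-07). Vav1, an exchange factor for RAC, rose by 0.43, and Lyn, another kinase of the same family as Src, fell by 0.57 on the log2 scale. The medians of the activators, adaptors and kinases were -0.24, -0.14 and -0.052, against 0.015 for all tested genes.

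Of 27 genes for integrin ligands, 13 were tested, and 4 fell, 1 rose and 8 were not called. The share called was 38.5%, against 40.8% of all tested genes. One of the 4, Lama3, a laminin chain with 10 to 26 counts per library, lost its call in all 4 fits that left out a library (edgeR FDR = 0.113 to 0.166) and with DESeq2 (adjusted p = 0.24). C3, whose cleavage product iC3b is bound by Mac-1 and the alpha X dimer, rose from 1441 and 1406 CPM to 3642 and 3410.4 CPM, a log2 fold change of 1.31 (edgeR FDR = 6.45e-11). Its change was thus opposite to those of the receptor genes Itgam, Itgax and Itgb2. F11r, which encodes a junctional ligand of LFA-1, fell from 21.7 and 23.4 CPM to 9.31 and 9.84 CPM (log2 fold change -1.24), and Thbs1, a ligand of alpha V integrins, fell by 2.23 on the log2 scale. Icam1, the main ligand of LFA-1, chosen after its values were seen, was abundant and not called, with 2470.3 and 2347 CPM against 2273 and 2113 CPM. Fn1, the ligand of the alpha 5 dimer, was not tested because its counts were too low.

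**Figure D4:**
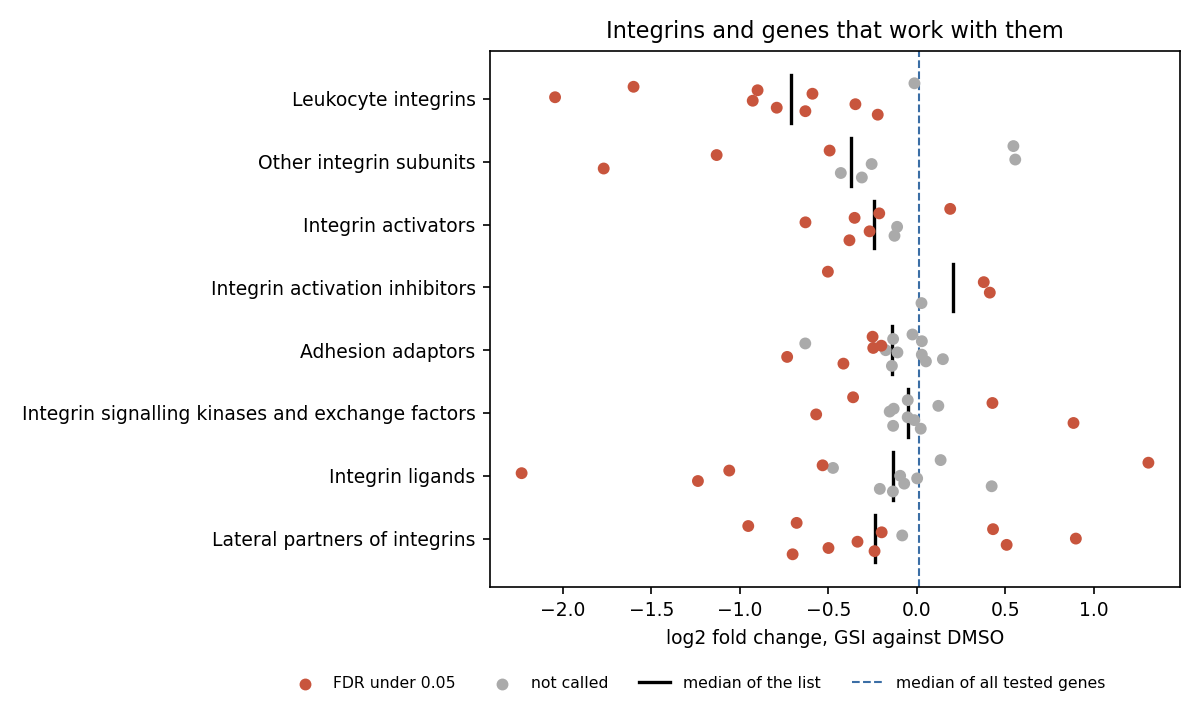
Log2 fold change of GSI against DMSO for every tested gene of the integrin list and of 7 lists of genes that work with integrins, 1 point per gene, red where the FDR was under 0.05. Black bars mark the median of each list and the dashed line the median of all tested genes (0.015). The leukocyte integrins have the lowest median of the 8 lists (-0.71), and the ligands span the widest range, from Thbs1 (-2.23) to C3 (1.31).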

How the data were processed

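The authors made strand-specific poly(A) libraries, trimmed the reads, aligned them with STAR (2.5.0a per the labels) to mm10, the build also called GRCm38, and deposited raw HTSeq read counts per Ensembl gene and run. The labels also name mm9. The HTSeq mode is not given in the sources used here. GSI was added overnight before activation according to the general methods, whereas figure legends of other assays give a pretreatment of minutes. The RNA sequencing methods give no pretreatment time, so the length of GSI exposure in these libraries is uncertain.

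The 16 columns were matched to samples by title, and the 4 runs of a replicate were summed, since they differed by no more than sampling noise (chi-square per degree of freedom 1.01 to 1.03, against 14.7 and 16.6 between replicates). The 4 libraries were fitted with edgeR 4.0.16 in R 4.3.3: filterByExpr, TMM, glmQLFit and glmQLFTest with group as the factor, and Benjamini-Hochberg adjustment (FDR) over 13211 genes. The SE is the log2 fold change divided by the square root of F. CPM used TMM-adjusted library sizes. Positions and exon lengths came from GENCODE M21, which holds 98.95% of the gene IDs. Subunit ratios used an exact permutation test. The alternatives were other scalings, filters and tools (DESeq2 1.42.0), a stricter FDR, separate runs, a replicate block, leaving out each library and other gene lengths. The code was tested on simulated data.

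The members and gene lists were chosen with earlier results of these data known. All 10 members were named, and from each other list the 3 largest changes with an FDR under 0.05 and at least 1 CPM on average, beta partners of members at that level, and for macrophage markers the 2 largest changes. Other genes named are marked or are given only to say what a summed level, a lost call or an untested gene consists of.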

Additional observations from a re-analysis of the deposited data

How the results depend on the processing

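With 2 libraries per group, each SD rests on 1 difference. The 9 decreases remained called, as the same 9 genes, under RLE or no normalization factors, DESeq2 and no filter. They also did with at least 10 counts in every library and with the replicate block. With the 16 runs entered as separate samples they remained too, but the runs of a replicate are not separate samples. That fit overstates the number of samples, so neither its calls nor those it adds are further support. With an FDR under 0.01, 8 of the 9 remained, without Itgal. Leaving out 1 library gave 8 or 9, and 0 of the 10 rose in any alternative. Outside the 10, entering the 16 runs as separate samples added calls in the lists of genes that work with integrins, from 27 lower and 9 higher to 38 and 13, among them Itgb3 (log2 fold change 0.56, edgeR FDR = 0.037). With the replicate block, Parvb was called lower as well (edgeR FDR = 0.0227), a sixth adaptor. The labels do not say that replicate numbers pair libraries, and the deviations of same-numbered libraries had a correlation of 0.155 over 13211 genes. The replicate block gave 9 integrins lower, and 3314 genes lower and 3130 higher over all genes, against 2888 and 2504 without it. Over all genes, 3896 were called higher with the 16 runs entered separately and 1617 at an FDR under 0.01. The log2 change of the summed Itgal, Itgam and Itgax relative to Itgb2, 0.044, became -0.031 with the unshared exon length, a length chosen after seeing the data, and ran from -0.034 to 0.12 when 1 library was left out. The place of 2 integrins in the order of levels changed on the longest transcript and that of 3 with the unshared exon length. Itga9 rests on at most 139 counts per library.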

Other observations

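Integrins work within the membrane beside tetraspanins and other lateral partners, and these did not move one way. Of 11 such genes, all of them tested, 7 fell, 3 rose and 1 was not called, with a median log2 fold change of -0.24. The share called was 90.9%, against 40.8% of all tested genes and 52.6% of those averaging at least 100 CPM. Of the 7, Cd37 lost its call without DMSO replicate 2 (edgeR FDR = 0.183) or GSI replicate 1 (0.0824), and Cd47 without DMSO replicate 1 (edgeR FDR = 0.268) or GSI replicate 1 (0.243). Plaur, the urokinase receptor, which associates with Mac-1 and beta 1 integrins, measured 255 and 272 CPM with DMSO and 126 and 147 CPM with GSI, a log2 fold change of -0.95 (edgeR FDR = 7.32e-09). Cd9, a tetraspanin that binds beta 1 integrins, fell from 162 and 151 CPM to 94.0 and 98.1 CPM (log2 fold change -0.70). Cd82, a tetraspanin of the same group, changed in the other direction, from 67.4 and 74.8 CPM to 132 and 133 CPM, a log2 fold change of 0.90.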
